A study of Rattus norvegicus with 9 samples.

Results

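The GDNF receptor and ureteric tip genes described here are Ret, Gfra1, Cxcr4, Ros1 and Tsc22d1. They were followed through every array probe set that the platform's probe-to-gene table assigns to one of these symbols alone. That gave 5 of the 10411 genes named on the array, and 10 of its 15866 probe sets without controls. Of the 10 probe sets, 9 exceeded the 40th percentile of signal on 3 or more of the 9 arrays and were tested, along with the rest of the 10106 probe sets that did so. The remaining one, a probe set of Ret, is given by its signals.

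The study asked how isolated rat ureteric buds differ in gene expression when they are grown in media that give different growth forms. Buds of embryonic day 13 Sprague-Dawley rats were freed of mesenchyme and cultured for 4 days in Matrigel and collagen mixed at 50% each. GDNF (125 ng/ml), which signals through Ret, and FGF1 (250 ng/ml) were present in all cultures of all groups. The HRG group received in addition recombinant human heregulin alpha, an ErbB receptor ligand, at 500 ng/ml. The PTN group received pleiotrophin, a growth factor that binds heparin, which had been purified from the BSN conditioned medium and was used at about 3 µg/ml. The BSN group received the conditioned medium itself, made by a metanephric mesenchymal cell line. There were 3 samples per group, RNA of 3 buds made up a sample, and each sample was amplified by 2 rounds of in vitro transcription and hybridised to 1 Affymetrix RAE230A array. The labels count HRG as non-branching and BSN as branching but give PTN both ways, so groups are named here by their medium. No group had FGF1 and GDNF alone, so a lower level in HRG cannot be told from a higher level in the other media.

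The ureteric bud is the epithelial tube that grows into the kidney mesenchyme and branches to form the collecting ducts. Mesenchymal GDNF binds Gfra1, a co-receptor anchored to the outer face of the membrane, and the complex activates Ret, a receptor tyrosine kinase. In the mouse, Ret is restricted to the branching tips as the bud grows, its signal turns on tip genes such as Cxcr4, and loss of GDNF, Gfra1 or Ret stops or impairs outgrowth of the bud. Sprouty proteins restrain the same signal from inside the cell.

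For Ret, Gfra1 and Cxcr4, whose signals moved together across the media, the 250 bases before the transcription start are shown to give the sequence context of the genes measured. They are RefSeq sequences of the rat GRCr8 build, written from 5′ to 3′ in the direction of transcription, and capitals mark CG dinucleotides, the sites of most DNA methylation in mammals. All 3 genes lie on the minus strand, Ret at chr4:153040557-153040806, Gfra1 at chr1:267555812-267556061 and Cxcr4 at chr13:42634289-42634538. Methylation and factor binding were not measured here.
Ret: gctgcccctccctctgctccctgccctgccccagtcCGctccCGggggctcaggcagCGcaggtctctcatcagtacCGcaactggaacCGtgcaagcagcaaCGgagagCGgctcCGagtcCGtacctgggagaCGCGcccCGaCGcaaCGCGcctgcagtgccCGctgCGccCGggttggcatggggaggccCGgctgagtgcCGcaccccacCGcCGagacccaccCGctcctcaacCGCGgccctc
Gfra1: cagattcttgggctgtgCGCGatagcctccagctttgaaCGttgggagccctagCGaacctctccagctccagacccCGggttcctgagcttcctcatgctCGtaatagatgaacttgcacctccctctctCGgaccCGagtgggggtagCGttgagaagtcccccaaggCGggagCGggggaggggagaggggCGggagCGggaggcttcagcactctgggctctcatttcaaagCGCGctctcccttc
Cxcr4: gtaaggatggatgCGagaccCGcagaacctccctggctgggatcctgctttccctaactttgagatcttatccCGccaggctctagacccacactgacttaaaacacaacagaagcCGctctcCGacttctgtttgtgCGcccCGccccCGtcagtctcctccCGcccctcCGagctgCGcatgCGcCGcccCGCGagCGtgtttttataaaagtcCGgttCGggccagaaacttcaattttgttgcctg

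The Ret stretch held 25 CG dinucleotides, the Cxcr4 stretch 18 and the Gfra1 stretch 15, while the median over 33469 rat promoters of the same length was 5. The stretch before Ros1 held 3. Tsc22d1 has 2 annotated starts in that table, with 37 and 27. Exact matches on both strands were sought for CCGGAA, a core of ETS factors, AGATAA of GATA factors, GTTAAT, a part of the HNF1 site, and AACAAT of SOX factors, in windows that also take in the first 50 transcribed bases. These letters occur in 15.0%, 11.6%, 7.45% and 11.7% of all promoters in that order, and among the 6 windows of the members the search found 1 match, GTTAAT before Ros1.

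The deposited signals were on one scale, with a trimmed mean of 2500.48 to 2500.58 on the 9 arrays. Pearson's r between arrays of log2 signals was 0.946 to 0.979 within groups and 0.882 to 0.937 between them. Of 12 markers of ureteric epithelium 10 were on the array and 8 were tested (Cdh1, Epcam, Krt8, Krt18, Krt19, Gata3, Lhx1 and Cdh16). The summed signal of the 10 was 146006 to 162210 in HRG, 105645 to 122018 in PTN and 136155 to 146006 in BSN. Hoxb7 was below the 40th percentile on all 9 arrays, and Calb1 was below the filter. Krt19 was higher and Lhx1 lower in HRG than in BSN, and the others did not pass. Against PTN 4 of the 8 were higher in HRG and 1 was lower. Compared with BSN, 3 were lower in PTN and none was higher. Of 12 mesenchyme markers 6 were on the array, with a summed signal of 2263 to 2550.9 in HRG, 2208 to 2513.7 in PTN and 2003.1 to 2598.3 in BSN. Of these 6, Col1a1 and Col3a1 were tested and passed in no comparison, and Wt1, Pdgfra, Pdgfrb and Gdnf were below the 40th percentile on all 9 arrays. Markers of neural crest and neurons, tissues that also use Ret, did differ: 10 of 12 were on the array, their summed signal was 4963.6 to 5950.9 in HRG, 7948.7 to 10311.4 in PTN and 10177.6 to 11591.5 in BSN, and Dbh, Sox10, Stmn2 and Snap25 were below the 40th percentile throughout. The actin control's 3′/5′ ratio, which is higher in degraded or 3′-weighted RNA, was 18.6 to 29.6 in HRG, 15.3 to 18.1 in PTN and 28.0 to 37.8 in BSN. The GAPDH ratio was 2.01 to 3.49 in HRG, 2.97 to 6.85 in PTN and 3.75 to 5.83 in BSN, with HRG apart from BSN. The part of these markers and ratios in the results on Ret, Gfra1 and Cxcr4 was not tested. In whole buds, fewer tip cells and less RNA per tip cell cannot be told apart.

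Ret, Gfra1 and Cxcr4 were lower in heregulin than in either other medium, by unequal amounts. Ret was lower by more than 14-fold on its strongest probe set, Cxcr4 by more than 11-fold on its strongest, and Gfra1 by about 3-fold. Against BSN the other tested probe sets gave 6.87-fold for Ret, and 6.45-fold and 5.22-fold for Cxcr4. Tsc22d1 was lower by less than 2-fold, and Ros1 was lower against BSN and did not pass against PTN. In HRG against BSN all 9 tested probe sets were lower and none higher, where 8.86% of all tested probe sets were lower, 6.92% higher and 15.8% called in either direction. In HRG against PTN 8 of 9 were lower and none higher, where 11.7% of all were lower, 14.1% higher and 25.8% called in either direction. Of those 9, 4 were above the 40th percentile on no HRG array and were kept only through PTN and BSN arrays, so these counts describe the members and are no support for a difference.

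Ret, the signalling receptor, was measured by a probe set, 1370989_at, with signals of 1112.4, 851.2 and 790.1 in HRG, 19680.8, 18578.2 and 18009.6 in PTN, and 11483.4, 15203.6 and 13848.0 in BSN. The HRG arrays lay far below all others, and the PTN arrays lay above the BSN arrays without overlap. Against BSN the log2 change in HRG was -3.86 (SE 0.156, 95% interval -4.20 to -3.52), a 14.5-fold lower signal (adjusted p = 1.80e-08, limma). Ordered by log2 change it held place 6 of the 10106 tested probe sets, counted from the lowest. Against PTN it was 20.3-fold lower in HRG (log2 change -4.34, adjusted p = 4.14e-09).

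A second Ret probe set, 1371112_at, gave 406.3, 241.9 and 294.2 in HRG, 3040.8, 1984.3 and 1781.8 in PTN, and 1927.8, 2440.8 and 2282.7 in BSN. It kept the HRG arrays apart from the others but did not separate PTN from BSN. HRG was 6.87-fold lower than BSN on it (adjusted p = 5.15e-06) and 6.88-fold lower than PTN (adjusted p = 3.56e-06). All its HRG signals were below the 40th percentile of their arrays, which averaged 691.1 in that group. It was thus kept only through PTN and BSN arrays, and these calls are no support for a difference. The third, 1388208_a_at, read 50.6 to 89.9 in HRG, 76.1 to 109.5 in PTN and 95.6 to 124.4 in BSN, which placed it between the 6.64th and 12.9th percentiles of the arrays. It was too dim to pass the filter, and without the filter none of its 3 comparisons passed (adjusted p = 0.272 between HRG and BSN, 0.521 between HRG and PTN and 0.597 between PTN and BSN). The dim probe sets 1371112_at and 1388208_a_at were both designed from one GenBank entry, the bright one from another.

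**Figure D1:**
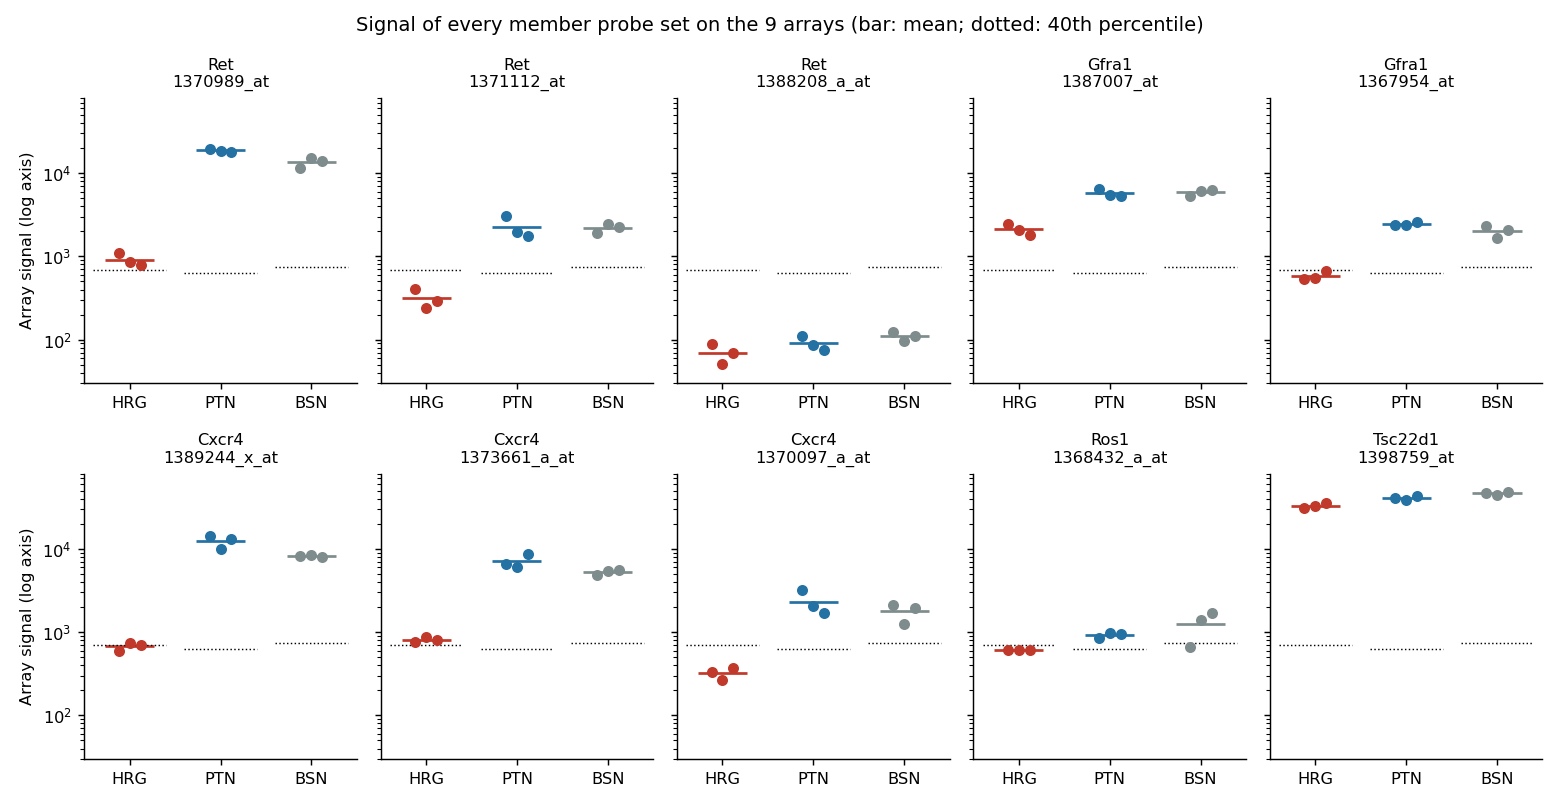
Signal of the 10 member probe sets on the 9 arrays, on a log axis, by medium; points are arrays, bars are group means and dotted lines the group's mean 40th percentile of signal. The 3 HRG points lie below all PTN and BSN points for the brighter 2 Ret probe sets, both Gfra1 and all 3 Cxcr4 probe sets, while 1388208_a_at of Ret lies under the dotted line in every group.

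Gfra1, the GDNF-binding co-receptor, was lower in HRG as well, and by less than Ret. Its probe set 1387007_at read 2479.4, 2051.1 and 1808.5 in HRG, 6437.6, 5528.4 and 5348.1 in PTN, and 5325.8, 6166.8 and 6256.5 in BSN. The HRG arrays did not reach the others, and PTN and BSN overlapped. HRG was 2.80-fold lower than BSN (log2 change -1.49, SE 0.149, adjusted p = 2.62e-05) and 2.73-fold lower than PTN (adjusted p = 1.92e-05).

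On the other Gfra1 probe set, 1367954_at, signals were 530.4, 557.0 and 673.2 in HRG, 2399.3, 2396.4 and 2566.2 in PTN, and 2288.3, 1670.0 and 2090.6 in BSN. All 3 groups were apart on it, with HRG lowest and PTN highest, and the HRG signals again fell short of the 40th percentile. The difference was 3.36-fold against BSN (adjusted p = 1.15e-05) and 4.12-fold against PTN (adjusted p = 2.42e-06). This probe set was kept only through PTN and BSN arrays, so these calls are no support for a difference. Both Gfra1 probe sets derive from one GenBank entry and share the RNA of each sample, so they are no independent replicates.

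The ratio of Ret to Gfra1 signal on the same array shows by how much the fall in the receptor exceeded that in its co-receptor. Its size has no meaning between genes, since probe sets differ in brightness, and only its change between media is read. For the brightest probe set of each gene it was 0.449, 0.415 and 0.437 in HRG, 3.06, 3.36 and 3.37 in PTN, and 2.16, 2.47 and 2.21 in BSN. The ratio was thus lowest in HRG on every array and highest in PTN, with no overlap between any 2 groups.

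Against PTN and BSN together the ratio in HRG was 6.21-fold lower, a difference of -2.63 on the log2 scale (exact two-sided permutation p = 0.0238 for 3 against 6 arrays, the smallest that design allows, and 0.0952 after Benjamini-Hochberg adjustment over 4 comparisons). With labels permuted only within each replicate number the exact p was 0.0741, the smallest that this permutation allows, so it could not pass 0.05. It was 5.19-fold lower in HRG than in BSN and 7.43-fold lower than in PTN, and 1.43-fold higher in PTN than in BSN. Each of these 3 pairs gave an exact permutation p of 0.1, the smallest that 3 against 3 arrays can give, and also an adjusted p of 0.1, so none could pass 0.05.

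The size of this difference depended on which probe sets stood for the genes. Bright Ret over 1367954_at of Gfra1 was 2.10, 1.53 and 1.17 in HRG, 8.20, 7.75 and 7.02 in PTN, and 5.02, 9.10 and 6.62 in BSN, a log2 difference of -2.21 for HRG against PTN and BSN together. With 1371112_at for Ret and 1387007_at for Gfra1 the ratio was 0.164, 0.118 and 0.163 in HRG, 0.472, 0.359 and 0.333 in PTN, and 0.362, 0.396 and 0.365 in BSN, and the difference was -1.31. In both, HRG stayed apart from the other media, while PTN and BSN overlapped.

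The fourth pairing, 1371112_at over 1367954_at, both below the 40th percentile on every HRG array, gave 0.766, 0.434 and 0.437 in HRG, 1.27, 0.828 and 0.694 in PTN, and 0.842, 1.46 and 1.09 in BSN. Here HRG and PTN overlapped, and the difference against PTN and BSN together was -0.89 (exact two-sided permutation p = 0.0476, adjusted 0.19 over 4 comparisons). The dimmest Ret probe set turned the sign of the ratio, to 1.02 over 1387007_at and 1.45 over 1367954_at on the log2 scale, with its Ret signals below the 40th percentile on all arrays. The difference was thus negative for the 4 pairings of tested probe sets, of which only the brightest holds no probe set that was below the filter on all HRG arrays, and positive for the untested Ret probe set. The ratio was higher in PTN than in BSN without overlap only for the brightest pairing.

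**Figure D2:**
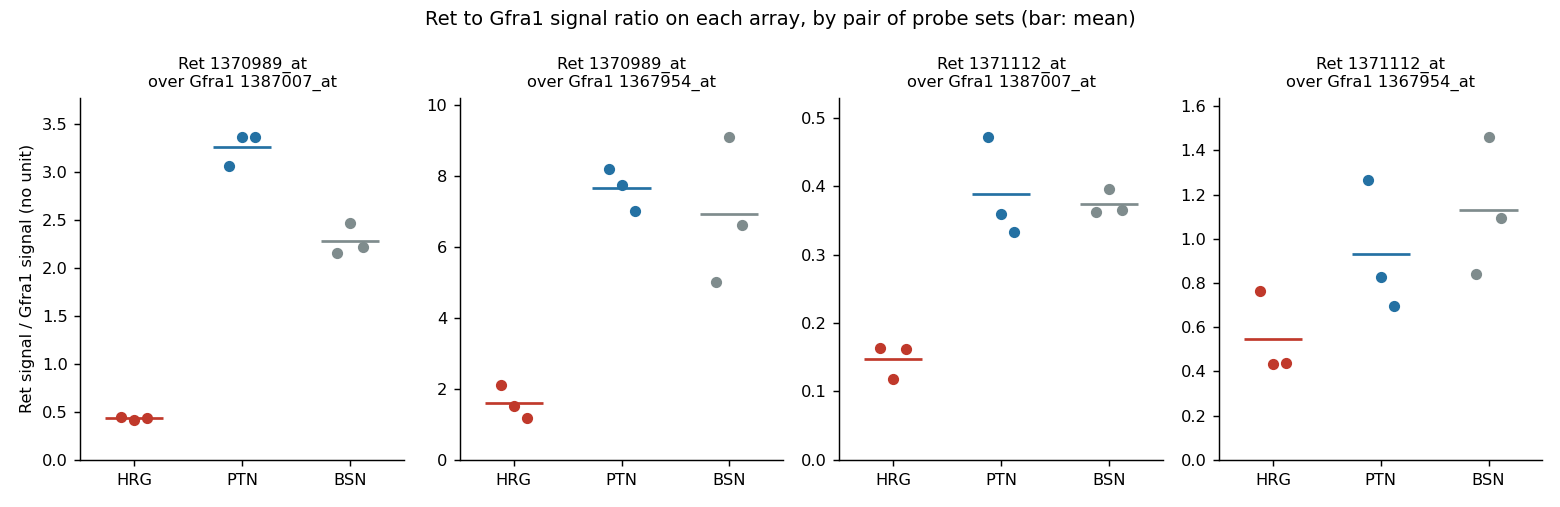
Ret signal over Gfra1 signal on each array for the 4 pairings of tested probe sets, each panel with its own axis from 0; points are arrays and bars group means. In the first panel HRG lies between 0.415 and 0.449, PTN between 3.06 and 3.37 and BSN between 2.16 and 2.47, and only in the last panel do HRG and PTN overlap.

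Cxcr4, the receptor for the chemokine Cxcl12 and in the mouse a gene that depends on Ret in the bud tip, was lower in HRG on all 3 of its probe sets. On 1389244_x_at it read 588.6, 732.8 and 708.7 in HRG, 14135.8, 9820.8 and 12954.4 in PTN, and 8147.4, 8513.2 and 8019.0 in BSN. The 3 media did not overlap, with PTN the highest. HRG was 11.9-fold lower than BSN (log2 change -3.58, SE 0.155, adjusted p = 1.80e-08) and 17.7-fold lower than PTN (adjusted p = 4.14e-09). The suffix of this probe set marks probes that may also bind other transcripts.

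Its companion 1373661_a_at, from the same GenBank entry, gave 762.3, 862.3 and 801.2 in HRG, 6508.0, 6031.7 and 8708.6 in PTN, and 4884.4, 5405.3 and 5638.8 in BSN, in the same order of groups. HRG was 6.45-fold lower than BSN and 8.51-fold lower than PTN on it. The dimmest, 1370097_a_at, read 330.2, 263.2 and 372.7 in HRG, 3177.3, 2039.4 and 1692.8 in PTN, and 2112.0, 1249.6 and 1973.7 in BSN. HRG lay below the 40th percentile on it, and PTN and BSN overlapped. The differences there were 5.22-fold against BSN (adjusted p = 4.65e-05) and 6.68-fold against PTN (adjusted p = 9.76e-06). This probe set too was kept only through PTN and BSN arrays, so these calls are no support for a difference.

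Both partners of Cxcr4 on the array were lowest in HRG, with Ackr3 highest in BSN and Cxcl12, like Cxcr4, highest in PTN. Ackr3, a scavenging receptor for the same chemokine, read 3535.8, 4687.4 and 4411.2 in HRG, 5567.6, 8410.1 and 6845.7 in PTN, and 17502.3, 22300.4 and 20922.2 in BSN. Both HRG and PTN were low, with no overlap between groups. It was 4.80-fold lower in HRG than in BSN (adjusted p = 2.20e-06), 1.63-fold lower in HRG than in PTN (adjusted p = 0.00882), and 2.94-fold lower in PTN than in BSN (adjusted p = 0.000103). Cxcl12, the ligand, averaged 522 ± 125 in HRG, 1875 ± 261 in PTN and 815 ± 144 in BSN (SD, n = 3 each). Its HRG average was under that group's mean 40th percentile of 691.1. Cxcl12 was 3.55-fold lower in HRG than in PTN (adjusted p = 5.85e-05) and 2.28-fold higher in PTN than in BSN (adjusted p = 0.00233). HRG against BSN did not pass (log2 change -0.64, adjusted p = 0.0659). Cxcl12 was named after its values were seen.

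Ros1, a receptor tyrosine kinase that marks the ureteric tip in the mouse, had signals of 610.2, 617.2 and 605.7 in HRG, 848.9, 969.4 and 958.9 in PTN, and 664.0, 1392.3 and 1674.9 in BSN. The HRG arrays were below the 40th percentile and below all others, while BSN replicate 1 lay close to them and far from the rest of its group. Ros1 was thus kept only through PTN and BSN arrays, and its calls in HRG are no support for a difference. HRG was 1.87-fold lower than BSN (log2 change -0.91, SE 0.278, adjusted p = 0.0435). Without BSN replicate 1 the log2 change was -1.30 (adjusted p = 0.00139), and it also passed without PTN replicate 1. With any other single array left out it did not pass (adjusted p = 0.0531 to 0.189), nor after quantile normalization (0.0854) or after centring each array on its median (0.0763). HRG against PTN did not pass (log2 change -0.58, adjusted p = 0.144), although the arrays did not overlap.

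Tsc22d1, a leucine zipper transcriptional regulator first found through its response to TGF-beta, read 30907.8, 32330.9 and 35497.6 in HRG, 40276.2, 38125.7 and 43692.1 in PTN, and 47116.2, 44374.4 and 48098.6 in BSN. The groups were apart in that order, HRG lowest and BSN highest. HRG was 1.42-fold lower than BSN (log2 change -0.50, SE 0.105, adjusted p = 0.00568) and 1.24-fold lower than PTN (log2 change -0.31, adjusted p = 0.0481). Under median centring, which moves every change of HRG against BSN up by 0.102, the first was -0.40 (adjusted p = 0.0502). Against PTN the call was lost in 11 of 19 alternatives, among them the omission of any single array other than PTN replicate 1, with adjusted p up to 0.150.

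**Figure D3:**
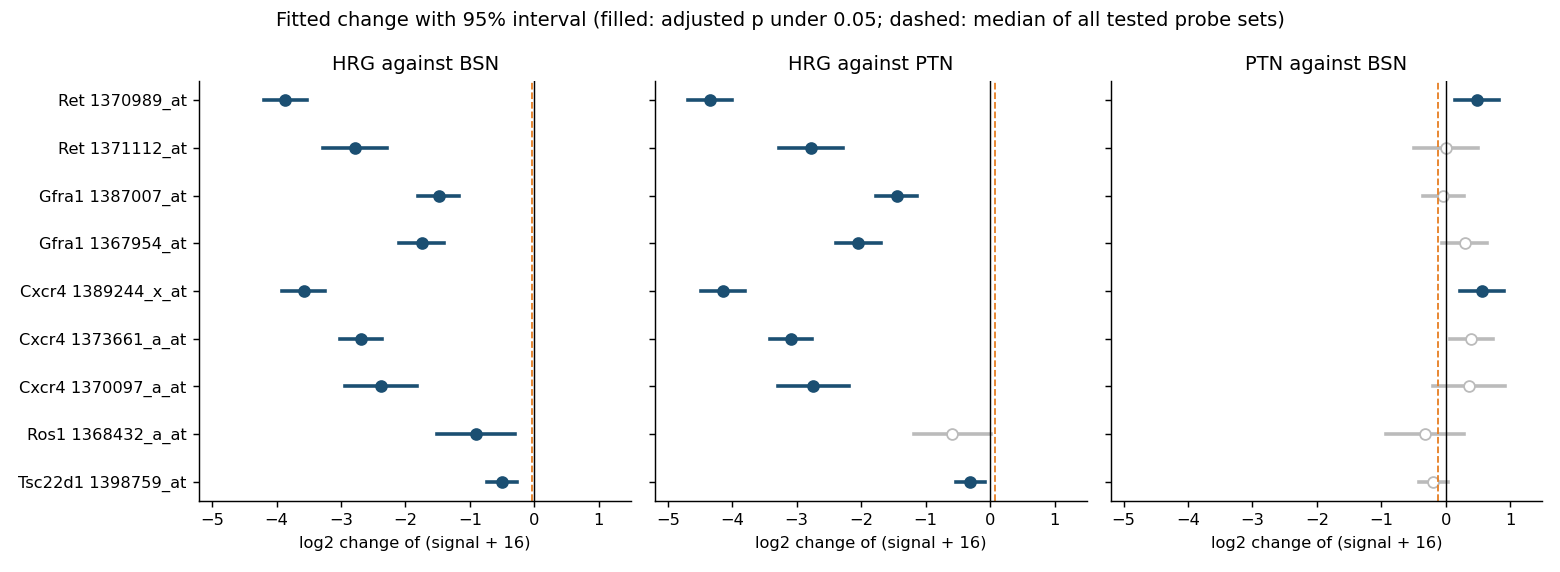
Fitted log2 change of the 9 tested member probe sets in each comparison, with 95% intervals; filled points passed an adjusted p of 0.05 and the dashed line is the median of all 10106 tested probe sets. In both panels with HRG all points lie left of 0 with only Ros1 against PTN open, and in PTN against BSN the filled points are Ret 1370989_at and Cxcr4 1389244_x_at.

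**Figure D4:**
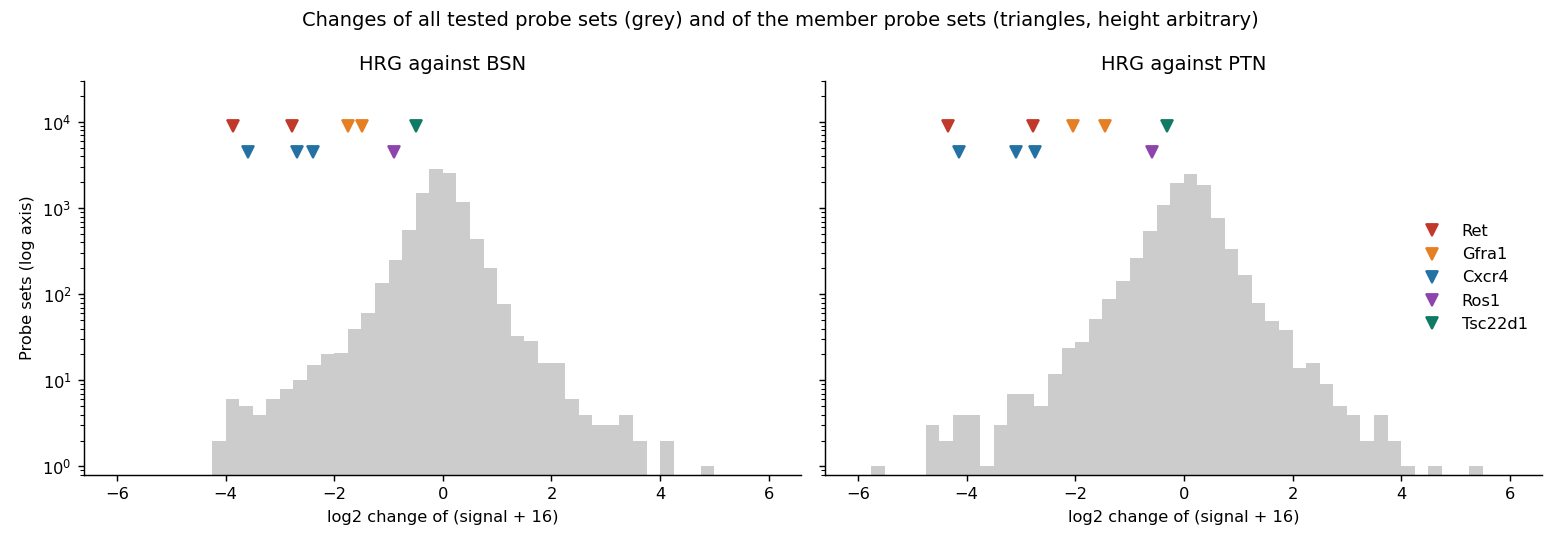
Histogram of the log2 changes of all 10106 tested probe sets (grey, counts on a log axis) with the 9 member probe sets as triangles, for HRG against BSN and HRG against PTN. Probe sets of Ret and Cxcr4 stand at the lower end of both distributions, Gfra1 lies between them and the bulk, and Tsc22d1 lies at its lower side.

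Probe sets of one gene agreed in direction and differed in size. In HRG against BSN the log2 change was -3.86 and -2.78 for Ret, -1.49 and -1.75 for Gfra1, and -3.58, -2.69 and -2.39 for Cxcr4. The probe sets with the strongest signal in PTN and BSN gave the larger change for Ret and Cxcr4 and the smaller one for Gfra1. For Ret the quotient of 1370989_at over 1371112_at was 2.69 to 3.52 in HRG, 6.47 to 10.1 in PTN and 5.96 to 6.23 in BSN, so the HRG arrays were apart from the rest. For Cxcr4 the quotient of 1389244_x_at over 1373661_a_at was 0.772 to 0.885 in HRG, 1.49 to 2.17 in PTN and 1.42 to 1.67 in BSN, again with HRG apart. For Gfra1 the quotient of 1387007_at over 1367954_at overlapped, at 2.69 to 4.67 in HRG, 2.08 to 2.68 in PTN and 2.33 to 3.69 in BSN. On every HRG array 1371112_at and 1367954_at were below the 40th percentile. The HRG average of 1389244_x_at, 676.7, was under that group's mean 40th percentile of 691.1. Low signals thus limit these quotients, and the cause of their differences was not tested.

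Between PTN and BSN few member probe sets passed. Of the 9 probe sets, 2 were higher in PTN than in BSN, where 9.15% of all tested probe sets were higher, and none was lower, where 13.4% were, with 22.5% called in either direction. Ret rose 1.40-fold on 1370989_at (log2 change 0.48, SE 0.156, adjusted p = 0.0424), and its other tested probe set had a log2 change of 0.00 (SE 0.230, adjusted p = 0.999). Cxcr4 rose 1.48-fold on 1389244_x_at (adjusted p = 0.0207), while 1373661_a_at, at 0.40 (adjusted p = 0.0789), and 1370097_a_at, at 0.36 (adjusted p = 0.342), did not pass.

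Neither call in PTN against BSN was stable. That of Ret was lost in 11 of 19 alternatives, among them quantile normalization and the omission of BSN replicate 1 (adjusted p = 0.160) or 3, HRG replicate 2 or any PTN array. That of Cxcr4 was lost in 5 of 19, among them quantile normalization (adjusted p = 0.0707) and the omission of BSN replicate 1 or 3 or PTN replicate 3. For Gfra1 the log2 change was -0.04 on 1387007_at (95% interval -0.36 to 0.29, adjusted p = 0.885) and 0.29 on 1367954_at (adjusted p = 0.205). The arrays of 1367954_at did not overlap, and it passed under median centring (0.51, adjusted p = 0.0432). Ros1, at -0.32 (adjusted p = 0.429), and Tsc22d1, at -0.19 (adjusted p = 0.200), did not pass. Without BSN replicate 1 Ros1 passed as lower in PTN (-0.71, adjusted p = 0.0306).

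The rest of the GDNF receptor family was sparsely measured. Of 12 listed ligands and receptors 9 were on the array and 5 were tested. In HRG 3 of these 5 were lower against BSN and against PTN, and none was higher. Among all tested probe sets 8.86% were lower and 6.92% higher against BSN, and 11.7% and 14.1% against PTN. These shares hold for the lists below as well. The list's median log2 change was -1.29 and -1.45, where all tested probe sets had medians of -0.04 and 0.08. Ret and Gfra1 are members, so the count and the medians partly restate them. The third gene, after Ret and Gfra1, was Nrtn, the ligand neurturin, which prefers another co-receptor. Nrtn averaged 1367 ± 298 in HRG, 5438 ± 1462 in PTN and 3371 ± 716 in BSN (SD, n = 3 each), which made it 2.45-fold lower in HRG than in BSN (adjusted p = 0.00119) and 3.91-fold lower than in PTN (adjusted p = 3.17e-05). It was named after its values were seen. In PTN against BSN, Ret and Nrtn were higher, and the Nrtn call (adjusted p = 0.0396) was lost in 9 of 19 alternatives. Gdnf itself was below the 40th percentile on all arrays.

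Of 21 listed adaptors, kinases and phosphatases that carry or limit the Ret signal inside the cell, 13 were tested, among them Grb2, Ptpn11, Gab1, Plcg1 and Akt1. None passed in HRG against BSN (limma, median log2 change -0.07), where 15.8% of all tested probe sets did. In HRG against PTN the phosphatases Ptprf (1.41-fold, adjusted p = 0.0348) and Ptprj (2.62-fold, adjusted p = 0.0110) were higher and none was lower, 2 of 13 where 25.8% of all tested probe sets were called. The Ptprf call was lost in 9 of 19 alternatives. Ptprf was the only gene of the list to pass in PTN against BSN, 1.70-fold lower in PTN (adjusted p = 0.00461).

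Of 12 listed genes that depend on Ret signalling in the mouse bud tip, 5 were tested, and Cxcr4, Mycn, Spry1 and Dusp6 were lower in HRG in both comparisons, while the matrix protease Mmp14 did not pass in either. Among all tested probe sets 8.86% were lower against BSN and 11.7% against PTN, and Cxcr4 is itself a member. The list's median log2 change was -1.52 against BSN and -1.70 against PTN. Mycn, a growth-promoting transcription factor, read 709.7, 942.7 and 586.5 in HRG, 6001.9, 7216.2 and 7486.9 in PTN, and 3145.8, 2791.7 and 3423.0 in BSN. All 3 groups were apart: HRG was 4.18-fold lower than BSN (adjusted p = 6.18e-06) and 9.20-fold lower than PTN, and PTN was 2.20-fold higher than BSN (adjusted p = 0.00087).

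Spry1, the Sprouty inhibitor of Ret in the bud, averaged 4448 ± 530 in HRG, 14467 ± 386 in PTN and 12757 ± 689 in BSN (SD, n = 3 each), and was 2.87-fold lower in HRG than in BSN (adjusted p = 5.15e-06). Dusp6, a phosphatase induced by and acting on ERK, was 2.18-fold lower in HRG than in BSN on its brightest probe set (adjusted p = 0.000136). A second Dusp6 probe set was lower too against BSN and did not pass against PTN (adjusted p = 0.113), and the third passed in neither. In PTN against BSN, Cxcr4 and Mycn passed as higher by the probe sets that stand for the list's genes, and the second Dusp6 probe set was 1.73-fold lower (adjusted p = 0.00505). Etv4, Etv5 and Wnt11, tip genes downstream of Ret in the mouse, were not analysed here, and Met was below the filter.

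Other tip genes moved in both directions. Of 16 listed, 6 were tested, and against BSN Mycn and Ccnd1, the cell cycle protein cyclin D1, were lower in HRG and Fgfr2, an FGF receptor, was higher. Ccnd1 was 2.39-fold lower in HRG than in BSN (adjusted p = 3.57e-05) and 2.91-fold lower than in PTN (adjusted p = 4.39e-06) on its brightest probe set. Its other 2 probe sets were also lower in HRG in both comparisons, by 1.55-fold to 3.47-fold, and one of them was 1.70-fold lower in PTN than in BSN (adjusted p = 0.00841), where the brightest did not pass (log2 change 0.29). Fgfr2 was 1.37-fold higher than in BSN (adjusted p = 0.0332), a call lost in 7 of 19 alternatives and not made by the other Fgfr2 probe set (adjusted p = 0.760). Against PTN, Mycn, Ccnd1 and Lgr5, a receptor for R-spondins, were lower and none was higher, and in PTN against BSN Mycn, Lgr5 and Fgfr2 were higher. This Fgfr2 call too was lost in 7 of 19 alternatives, and its other probe set did not pass (adjusted p = 0.869). Shh was below the filter, and Sox9 was not analysed here.

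Of 15 listed regulators of Ret expression 7 were tested. Lhx1, a LIM homeodomain factor of the bud, read 2367.4, 1697.6 and 1655.8 in HRG, 5802.2, 4279.4 and 4119.1 in PTN, and 4473.9, 5018.2 and 5025.9 in BSN. HRG was apart from both and PTN and BSN overlapped, as for Gfra1. It was 2.56-fold lower in HRG than in BSN (adjusted p = 0.000192) and was the only regulator that passed there. Against PTN, Lhx1 and Rarb, a retinoic acid receptor, were lower, Rarb by 1.75-fold (adjusted p = 0.000986), and in PTN against BSN only Rarb passed, as higher, a call lost without BSN replicate 3, PTN replicate 2 or PTN replicate 3. Gata3, a factor required for Ret expression in the mouse duct, read 704.0 to 1142.7 in HRG, 676.5 to 1504.3 in PTN and 1141.5 to 1275.9 in BSN and passed in no comparison (adjusted p = 0.510 between HRG and BSN, 0.993 between HRG and PTN and 0.446 between PTN and BSN). Pax2 was not analysed here.

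Among 12 restraints on the GDNF signal and their antagonists 6 were tested. Grem1, which blocks BMP4 and so allows the bud to grow out, read 3886.1, 3207.7 and 4250.0 in HRG, 372.1, 654.9 and 1050.0 in PTN, and 1149.6, 1490.2 and 1164.3 in BSN. It thus ran opposite to Ret, 2.96-fold higher in HRG than in BSN (adjusted p = 0.00221) and 5.78-fold higher than in PTN (adjusted p = 3.88e-05). Spry1, Spry2 and the activin antagonist Fst were lower in HRG than in BSN, the call of Spry2 (adjusted p = 0.0478) being lost in 10 of 19 alternatives. Against PTN, Spry1 and Spry2 were lower. In PTN against BSN, Fst, Grem1 and the activin subunit gene Inhba were lower, and the calls of Grem1 and Inhba did not hold under quantile normalization or median centring.

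The list of partners and relatives of Cxcr4, Ros1 and Tsc22d1 had 6 tested genes of 12. In HRG only Ackr3 passed against BSN, as lower. Against PTN, Ackr3 and Cxcl12 were lower and Tsc22d4, a relative of Tsc22d1, was 1.98-fold higher (adjusted p = 0.0166, and 0.0836 without HRG replicate 1). In PTN against BSN, Cxcl12 was higher, and Ackr3 and Tsc22d4 were lower.

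Trunk and collecting duct genes, which in the kidney mark the part of the duct that lacks Ret, gave the opposite picture in part. Of 14 listed, 8 were tested. Against BSN 4 were higher in HRG (Aqp3, Aqp4, Scnn1b and Slc14a2) and Slc4a1 was lower, where 6.92% of all tested probe sets were higher and 8.86% lower. The list's median log2 change was 0.50. Aqp3, a water and glycerol channel, read 7893.8, 10235.5 and 10875.2 in HRG, 1006.5, 1065.6 and 1970.6 in PTN, and 564.9, 408.7 and 598.5 in BSN. It was 18.0-fold higher in HRG than in BSN (adjusted p = 2.14e-07) and 7.38-fold higher than in PTN. All its BSN signals were below the 40th percentile of their arrays, which averaged 750 in that group. This limits the fold against BSN, and Aqp3 was kept only through HRG and PTN arrays. Aqp4, another water channel, was 3.76-fold higher in HRG than in BSN (adjusted p = 9.86e-05), and its second probe set did not pass there (adjusted p = 0.248).

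Against PTN the same 4 genes were higher in HRG, and Aqp2, the vasopressin-regulated channel of the principal cell, was lower, at 183 ± 30.7 in HRG, 1531 ± 746 in PTN and 139 ± 26.7 in BSN (SD, n = 3 each), with HRG and BSN below the 40th percentile. In PTN against BSN only Aqp2 and Aqp3 passed, both as higher. Aqp2 was kept only through PTN arrays, and Aqp3 only through HRG and PTN arrays. The Aqp2 calls and the Aqp3 calls against BSN are thus no support for a difference. The Slc4a1 and Slc14a2 calls against BSN (adjusted p = 0.0396 and 0.0394) were each lost in 7 alternatives.

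**Figure D5:**
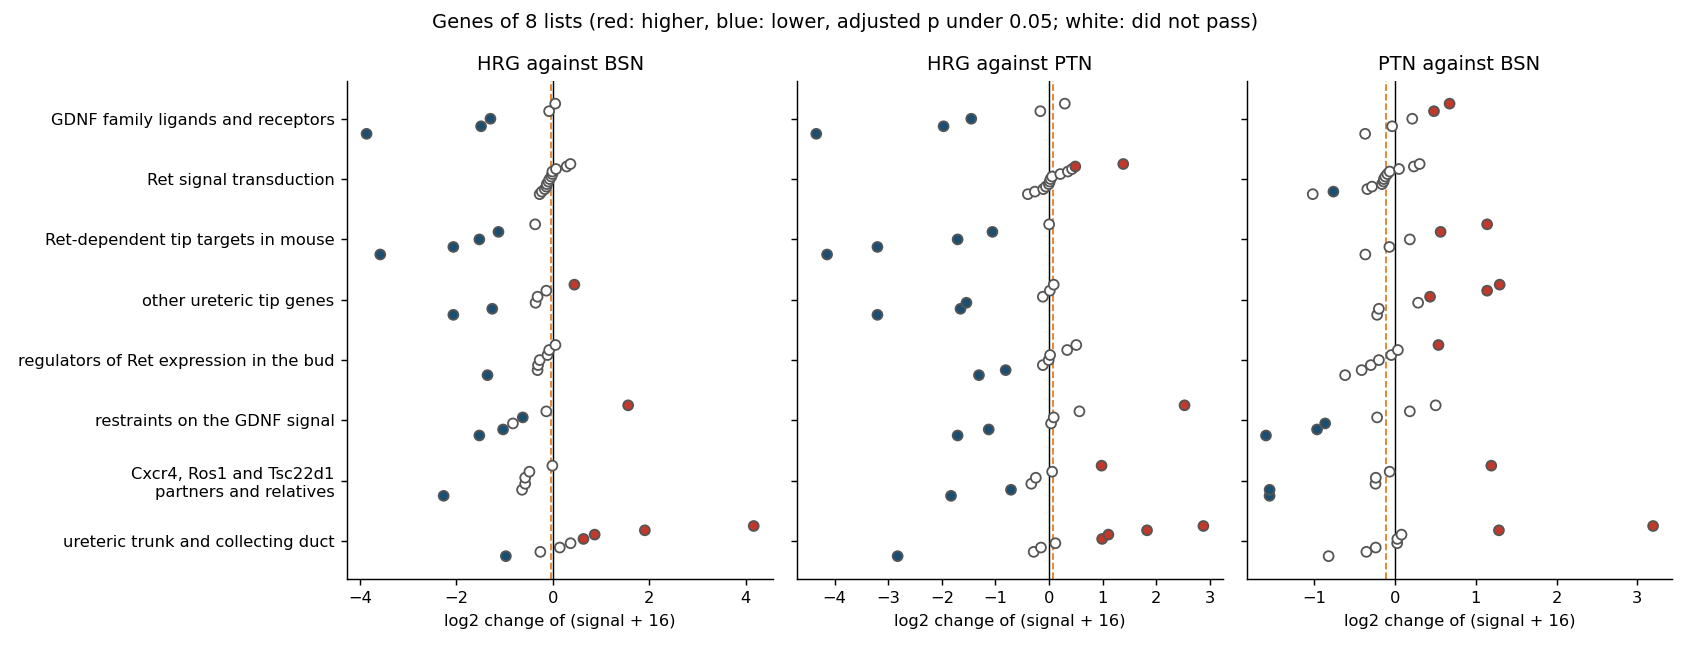
Log2 change of each tested gene of the 8 lists in the 3 comparisons, each panel with its own axis; red points were higher and blue points lower at an adjusted p under 0.05, white points did not pass, and the dashed line is the median of all tested probe sets. Ret-dependent targets and the GDNF receptor family hold blue points and no red ones in both panels with HRG. Signal transduction genes hold no coloured point in HRG against BSN and 2 red ones in HRG against PTN, and trunk genes hold 4 red points and 1 blue one in each of these panels.

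Across the 9 arrays, the probe sets most like 1370989_at of Ret, among 1156 with a standard deviation of at least 0.5 on the log2 scale, were those of Crym (Pearson's r = 0.992), Cxcr4 (0.991), Dcx (0.990), Ccnd1 (0.990) and Ncapd2 (0.989). Crym binds thyroid hormone, Dcx is a microtubule protein of young neurons and Ncapd2 a condensin subunit. Those most like 1387007_at of Gfra1 were Ret 1371112_at (0.992), Lhx1 (0.991), Trmt6 (0.990), Fn1 (0.990) and Map2 (0.989), where Fn1 encodes fibronectin and Map2 a neuronal microtubule protein. The members' own r with the brightest Ret probe set was 0.974 and 0.984 for Gfra1, 0.961 to 0.991 for Cxcr4, 0.983 for the second Ret probe set, 0.809 for Tsc22d1 and 0.696 for Ros1. The points fall into 3 media, 2 of them close for Ret, so these values mainly describe that HRG stands apart.

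Dcx, one of the neural markers, averaged 57.7 ± 22.6 in HRG, 1123 ± 210.3 in PTN and 988 ± 123 in BSN (SD, n = 3 each). Its HRG signals were below the 40th percentile, which averaged 691.1 in that group, so it was kept only through PTN and BSN arrays. The Dcx calls are thus no support for a difference. Map2 averaged 611 ± 154 in HRG (SD, n = 3), also under that level. Of the 6 tested markers of neural crest and neurons, Dcx, Map2, Elavl4 and Gap43 were lower in HRG than in BSN, and Dcx and Map2 were lower than in PTN. Of the list's markers, 4 exceeded the 40th percentile on any HRG array and 6 on any BSN array. These counts, which include Dcx, thus describe the markers and are no support for a difference. The call of Gap43 was lost in 7 of 19 alternatives. Phox2a and Th, also tested, passed in no comparison, and Sox10, Dbh, Stmn2 and Snap25 were below the 40th percentile on all arrays. Kdr, the only tested marker of endothelium, was lower in HRG in both comparisons, and neither of the 2 tested blood markers passed. The part of such cells in the levels of Ret, Gfra1 and Cxcr4 was not tested.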

How the data were processed

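Affymetrix RAE230A signal intensities of 9 samples, 3 per medium, were used as deposited by the authors, on a linear scale. They were made with GCOS, per the submitters' processing notes, with no version or settings given in the sources used here. The fit and the tables used log2 of the signal plus 16, and fold changes are on that scale, so they understate low signals. Of 15923 probe sets 57 controls were set aside, and 10106 were kept whose signal was over the 40th percentile of 3 or more arrays. Of the 15866 left, 12789 had 1 symbol in the platform table, 312 had several and 2822 had none.

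Differences were tested with limma 3.58.1 under R 4.3.3 (linear fit, contrasts, and eBayes with intensity trend) in one fit over 9 arrays, with 6 residual degrees of freedom, 12.7 after moderation, and Benjamini-Hochberg adjustment over all kept probe sets at 0.05. The number of arrays limits the precision. The series' design text calls the samples of a group biological replicates. The fit was tested on simulated data. The Ret to Gfra1 ratio was tested by exact two-sided permutation over arrays.

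A gene in a list entered by its brightest kept probe set. Genes were named where they were among up to 2 highest or 2 lowest of a list by moderated t in HRG against BSN, or from a short list named whatever their values; others that complete a count were named after their values were seen. The members and lists were chosen with earlier results of these data known. Arrays of HRG and PTN with one replicate number deviated together (r = 0.266, 0.332 and 0.118), each matching its own number best. This pairing was seen in the data and is not given by the labels. The main fit did not use it, so its p-values are unpaired, and the replicate number entered only as a block in an alternative. The block changed no member's call in HRG against PTN. Alternatives were quantile normalization, median centring, pseudocounts of 1 and 64, no filter, a 60th percentile filter, no trend, only the groups compared, the replicate block and each array left out.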

Additional observations from a re-analysis of the deposited data

How the results depend on the processing

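Ret 1370989_at, Gfra1 1387007_at, Cxcr4 1389244_x_at and Cxcr4 1373661_a_at, each above the filter on some HRG array, stayed lower and past the threshold in HRG, against BSN as against PTN, under all 19 alternatives, with bright Ret between -4.01 and -3.76 and between -4.49 and -4.25 on the log2 scale. Median centring moved every change by 0.102 in HRG against BSN, -0.11 in HRG against PTN and 0.213 in PTN against BSN, and turned the split to 855 higher and 623 lower, 943 and 1452, and 1598 and 645 in that order (main 699 and 895, 1423 and 1180, 925 and 1351). Leaving out single arrays gave 1053 to 2225 calls in HRG against BSN (1594 in all; 1053 without HRG replicate 3), 1882 to 3109 in HRG against PTN (2603) and 1358 to 3222 in PTN against BSN (2276; 1358 without BSN replicate 3). Member probe sets lower in HRG against BSN numbered 8 to 9 and in HRG against PTN 7 to 8 without single arrays. Those higher in PTN against BSN, 2 in the full fit, were 0 under quantile normalization, 4 under median centring, 1 with no filter, 1 without the trend and 0 to 2 without single arrays. For BSN arrays r within replicate numbers was -0.055, 0.13 and 0.091 with HRG, and -0.097, -0.011 and -0.064 with PTN. Arrays that matched their own number best were 3 of 6 in HRG against BSN and 0 of 6 in PTN against BSN. In HRG against PTN they were 6 of 6. The replicate block was not part of the main fit. The block gave 1641 calls in HRG against BSN, 2690 in HRG against PTN and 2362 in PTN against BSN, with 1 member probe set higher in the last. With the block and only the groups compared, chosen after seeing the data, PTN against BSN had 1431 calls and 0 member probe sets. The log2 Ret to Gfra1 difference for HRG against PTN and BSN together, HRG against BSN, HRG against PTN and PTN against BSN was -2.21, -2.11, -2.30 and 0.19 for 1370989_at over 1367954_at, -1.31, -1.29, -1.33 and 0.037 for 1371112_at over 1387007_at, and -0.89, -1.03, -0.74 and -0.29 for 1371112_at over 1367954_at. It was 1.02, 0.91, 1.13 and -0.22 for 1388208_a_at over 1387007_at and 1.45, 1.17, 1.72 and -0.55 for 1388208_a_at over 1367954_at, whose Ret signals are below the filter. Quantile normalization gave -2.80 between HRG and PTN and 0.39 between PTN and BSN. The exact p of the ratio within replicate numbers was 0.0741 for HRG against PTN and BSN together and 0.25 for each pair of groups. The causes of these changes were not tested. Signals under the 40th percentile limit the folds of 5 of 9 member probe sets in HRG.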
